A study of Culex quinquefasciatus and Culex pipiens molestus with 2 samples.

Results

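Pre-mRNA splicing and 3′ end processing were followed through 116 of the 16198 transcript models that were listed for females of 2 house mosquitoes. The members were taken by the text of their product descriptions, which name splicing factors, small nuclear ribonucleoproteins (snRNPs), pre-mRNA factors, heterogeneous nuclear ribonucleoproteins (hnRNPs), cleavage and polyadenylation factors or poly(A) polymerases. Models described as helicases or RNA polymerases were left out. The text rule uses no measured value, but it was chosen with earlier results of these data known. Each group was 1 RNA sequencing library of polyadenylated RNA, made from the pooled RNA of females of a laboratory strain, 30 per taxon. The taxa were Culex pipiens molestus, a form that breeds mostly underground and can lay its first eggs without blood, and Culex pipiens quinquefasciatus, a warm-climate form that feeds on blood before laying. The labels state no treatment, genotype, collection time, age or feeding state for either group. Neither table is linked to a taxon by the labels, so the table abbreviated Cxm was read as molestus and Cxq as quinquefasciatus, and all directions depend on that link.

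Splicing removes introns from a new transcript. It is carried out by the spliceosome, which assembles from the U1, U2, U4, U5 and U6 snRNPs. Most of these snRNPs carry a ring of Sm proteins. SR proteins and hnRNPs bind the transcript and influence which splice sites are used. At the 3′ end, a cleavage complex cuts the transcript after its polyadenylation signal and a poly(A) polymerase adds the tail. In insects the same machinery runs in every tissue, and the growing egg chamber is known for high transcription in its nurse cells.

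The molestus library held 9.79 M uniquely assigned reads and the quinquefasciatus library 10.17 M. Levels are given in RPKM, the reads per kilobase of model length for each M reads of the library. With 1 library per taxon no difference could be checked against replicates, and no p-value is given. Folds are ratios of RPKM with an exact 95% interval from the counts, which covers counting error only, since reads copied by PCR are not independent molecules. The log2 ratio, molestus over quinquefasciatus, was taken on the scale of RPKM + 1, which understates the ratio of low models. Every count of models past 2-fold uses that scale, so a low model can have an RPKM ratio above 2 and not be counted. Whether a difference in RNA of whole females comes from more cells of a type or from more RNA per cell cannot be told apart in pooled animals.

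Splicing and 3′ end models were mostly higher in the molestus library. Of the 116 members, 93 had at least 1 RPKM in at least 1 library and were compared, and the other 23 fell below that level in both. At least 2-fold higher in molestus were 33 of the 93, beside 22.8% of all 12789 models compared. At least 2-fold lower were 3, beside 18.0% of all models. The median log2 ratio was 0.73 over the members (exact interval over members 0.59 to 0.96) and 0.18 over all models. By any amount, 81 of the 93 were higher in molestus, beside 55.4% of all models. The fold's counting interval was entirely above 1 for 75 members, beside 44.4% of all models, and entirely below 1 for 7, beside 32.9%. Together the members took 1.04% of the molestus reads (exact interval 1.037 to 1.050) and 0.547% of the quinquefasciatus reads (0.542 to 0.552).

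**Figure D1:**
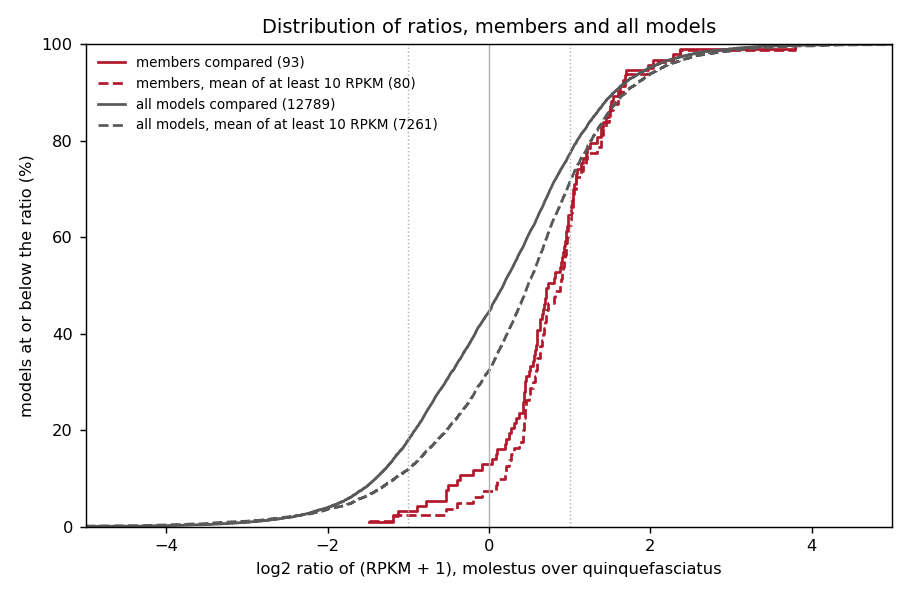
Cumulative share of models (y, percent) by log2 ratio of RPKM + 1, molestus over quinquefasciatus (x), for the members (red) and all models (grey), solid for those compared and dashed for those with a mean of at least 10 RPKM; the axis is limited to 5 on either side. Of the compared members, 12 lie below 0, against 44.6% of all models.

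The scale and the level of expression both bore on these counts. Cytosolic ribosomal proteins, which occupy a large part of the libraries, took 13.1% of the molestus and 24.0% of the quinquefasciatus reads. After rescaling by the median ratio of expressed models, a shift of -0.30, the members' median was 0.46 and that of all models -0.09, with 20 members at least 2-fold higher (16.4% of all models) and 4 lower (24.3%). On that scale any member less than 1.23-fold higher in molestus changes side, and 74 of the 93 stayed above 0. Of the members, 80 had a mean of at least 10 RPKM over both libraries, with a median of 0.88 and 74 above 0. Among all 7261 models at that level the median was 0.48 and 67.6% were above 0. At least 2-fold higher were 30 of the 80 members (37.5%), beside 28.6% of all models at that level. At least 2-fold lower were 2 (2.5%), beside 11.9%. The 13 compared members under that level had a median of 0.03, with 7 above and 6 below 0. Among all 5528 compared models under that level the median was -0.35 and 39.5% were above 0. At a 4-fold threshold 4 members were higher in molestus, beside 4.81% of all models, and 0 were lower, beside 3.97%. With a pseudocount of 10, which draws low models towards 1, 20 were at least 2-fold higher, beside 10.4% of all models, and 0 lower, beside 4.83%. With a pseudocount of 0.1, 35 were higher, beside 25.8%, and 6 lower, beside 23.1%.

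The order of the members was much alike in both libraries, with Pearson's r of 0.921 and Spearman's rho of 0.913 between the levels on the log2 scale over the 93 members. Over all 12789 models compared, r was 0.838 and rho 0.826. These models share 2 libraries and their values carry model length and base composition, so this is a description. Several abundant members held different ranks. The U2 snRNP A model CPIJ011427 was the most abundant member in molestus and ranked 23 in quinquefasciatus. hnRNP A1 (CPIJ001612) ranked 4 in molestus and 13 in quinquefasciatus, and Sm D1 (CPIJ016511) 9 in molestus and 31 in quinquefasciatus. Sm F (CPIJ002691) ranked 8 in molestus and 1 in quinquefasciatus, and the splicing factor 3B model CPIJ007014 ranked 10 in molestus and 4 in quinquefasciatus. The Sm model CPIJ002885, the SR models CPIJ007047 and CPIJ013237 and Sm D3 (CPIJ005588) held ranks 2, 3, 5 and 6 in both libraries.

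**Figure D2:**
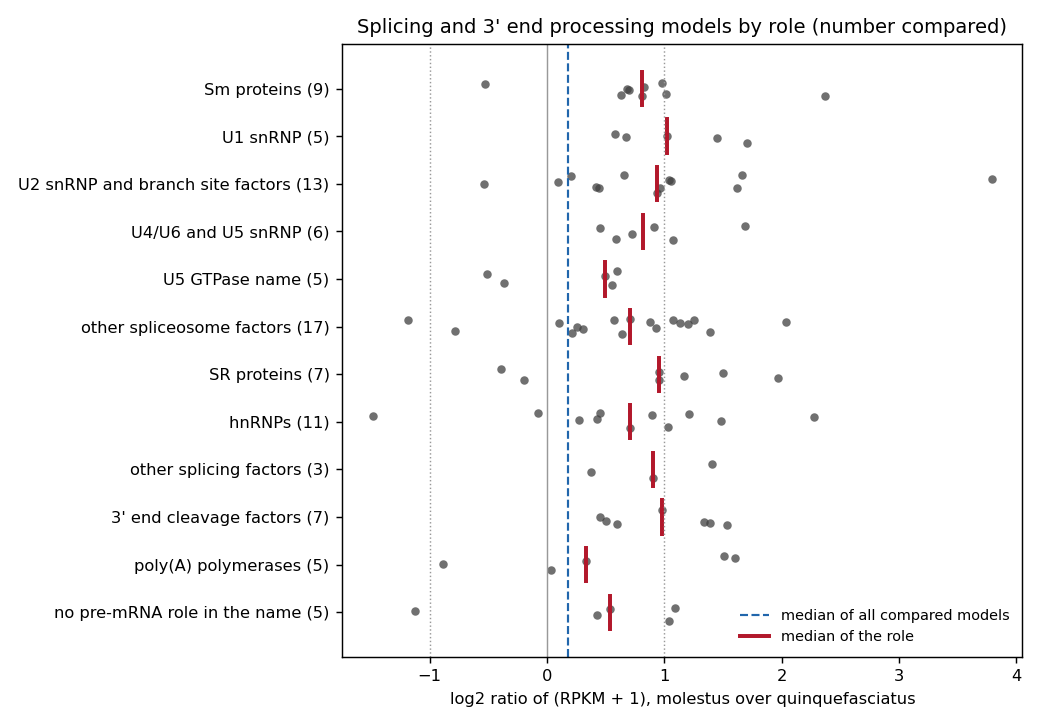
Log2 ratio of RPKM + 1, molestus over quinquefasciatus (x), of each of the 93 compared members, by role (y, with the number compared); red bars are role medians, the dashed line is the median of all compared models and dotted lines mark 2-fold. All 12 role medians lie above 0, from 0.33 for the poly(A) polymerases to 1.02 for the U1 snRNP.

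The counts by role or list below stand beside the share of all models compared, 22.8% at least 2-fold higher in molestus and 18.0% lower. Among all models with a mean of at least 10 RPKM, a level that 80 of the 93 compared members reach, the shares were 28.6% and 11.9%. The Sm proteins, which form a ring on the snRNA of most snRNPs, were higher in molestus for 8 of 9 models, with a median log2 ratio of 0.81. At least 2-fold higher were 2 of the 9 (22.2%), near the share of all models. Sm D1 (CPIJ016511) had 771 reads and 207 RPKM in molestus, against 152 reads and 39.2 RPKM in quinquefasciatus, a 5.27-fold difference (4.42 to 6.31). Its partners in the ring differed less. Sm D2 (CPIJ001706) had 67.1 RPKM in molestus and 32.8 RPKM in quinquefasciatus, 2.05-fold higher (1.77 to 2.37). Sm D3 (CPIJ005588) had 319 RPKM in molestus and 161 RPKM in quinquefasciatus, 1.98-fold higher (1.83 to 2.14). The associated protein B (CPIJ006616) had 144 RPKM in molestus and 89.2 RPKM in quinquefasciatus, 1.61-fold higher (1.44 to 1.8). Sm F (CPIJ002691) went the other way, with 271 RPKM in molestus and 390 RPKM in quinquefasciatus, 1.44-fold lower (1.31 to 1.59). The remaining 4 Sm models, described without a letter, were 1.58-fold to 1.79-fold higher in molestus. The counting intervals of Sm D1 and Sm F overlapped with those of no other Sm model.

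The U1 snRNP binds the 5′ splice site first. All 5 of its models were higher in molestus, 3 by at least 2-fold, with a median of 1.02. U1 A (CPIJ019134), which binds a stem-loop of the U1 snRNA, had 128 RPKM in molestus and 38.5 RPKM in quinquefasciatus, 3.31-fold higher (2.92 to 3.76). Each of the other U1 proteins was listed as a pair of models. For the 70 kDa protein, which contacts the same snRNA, CPIJ012814 had 167 RPKM in molestus and 60.7 RPKM in quinquefasciatus (2.76-fold, 2.59 to 2.95), and CPIJ006061 had 20.6 RPKM in molestus and 13.5 RPKM in quinquefasciatus (1.53-fold, 1.3 to 1.8). For U1 C, which helps to hold the 5′ splice site, CPIJ003277 was 2.05-fold higher (1.73 to 2.43) and CPIJ019181 1.60-fold higher (1.37 to 1.88). The intervals of the 70 kDa pair do not overlap, while those of the U1 C pair do.

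The U2 snRNP and the factors that recognise the branch site and 3′ splice site held the largest difference among the members. Of its 13 models, 12 were higher in molestus, 5 by at least 2-fold, with a median of 0.94. CPIJ011427, described as U2 snRNP A, had 7100 reads and 707 RPKM in molestus, against 524 reads and 50.2 RPKM in quinquefasciatus, a 14.1-fold difference (12.9 to 15.4). The model was covered by reads over 99.2% of its length in molestus and 90.7% in quinquefasciatus. A pair of further models carries the same description. CPIJ002382 had 45.2 RPKM in molestus and 13.6 RPKM in quinquefasciatus, 3.32-fold higher (2.69 to 4.1). CPIJ000188 had 48.7 RPKM in molestus and 22.9 RPKM in quinquefasciatus, 2.13-fold higher (1.76 to 2.57). The deposited name does not separate the leucine-rich U2 A′ protein from other U2 proteins, so the 3 models need not be copies of 1 gene.

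The summed RPKM of the 13 models of the U2 group was 1503 in molestus and 542 in quinquefasciatus, a ratio of 2.77. Without CPIJ011427 the sums were 796 in molestus and 492 in quinquefasciatus, a ratio of 1.62. U2AF 50 kDa (CPIJ012850), the large subunit of the factor that binds the polypyrimidine tract, had 116 RPKM in molestus and 37.0 RPKM in quinquefasciatus, 3.13-fold higher (2.89 to 3.39). Its partner U2AF 38 kDa (CPIJ016711), which reads the AG of the 3′ splice site, had 17.4 RPKM in molestus and 12.5 RPKM in quinquefasciatus, 1.38-fold higher (1.09 to 1.77). The SF3 complexes, which clamp the U2 snRNA to the branch site, spread over a range. The splicing factor 3A models were 1.97-fold (CPIJ003364, 1.71 to 2.28) and 1.59-fold (CPIJ002728, 1.45 to 1.74) higher in molestus. Of the 3B models, CPIJ010596 was 1.94-fold higher (1.79 to 2.1) and CPIJ009000 1.34-fold higher (1.27 to 1.42). The most abundant 3B model, CPIJ007014, had 187 RPKM in molestus and 175 RPKM in quinquefasciatus, a ratio of 1.07 (1.03 to 1.10) whose direction turned under each of the 4 rescalings tried. The splicing factor 3 model CPIJ015416, with no letter in its name, was 2.09-fold higher (1.9 to 2.3). A U2AF small subunit model (CPIJ005985), with 15 reads in molestus and 28 reads in quinquefasciatus, was the 1 model of the group below 1, with an interval that includes 1 (1.8-fold lower, 0.928 to 3.62).

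**Figure D3:**
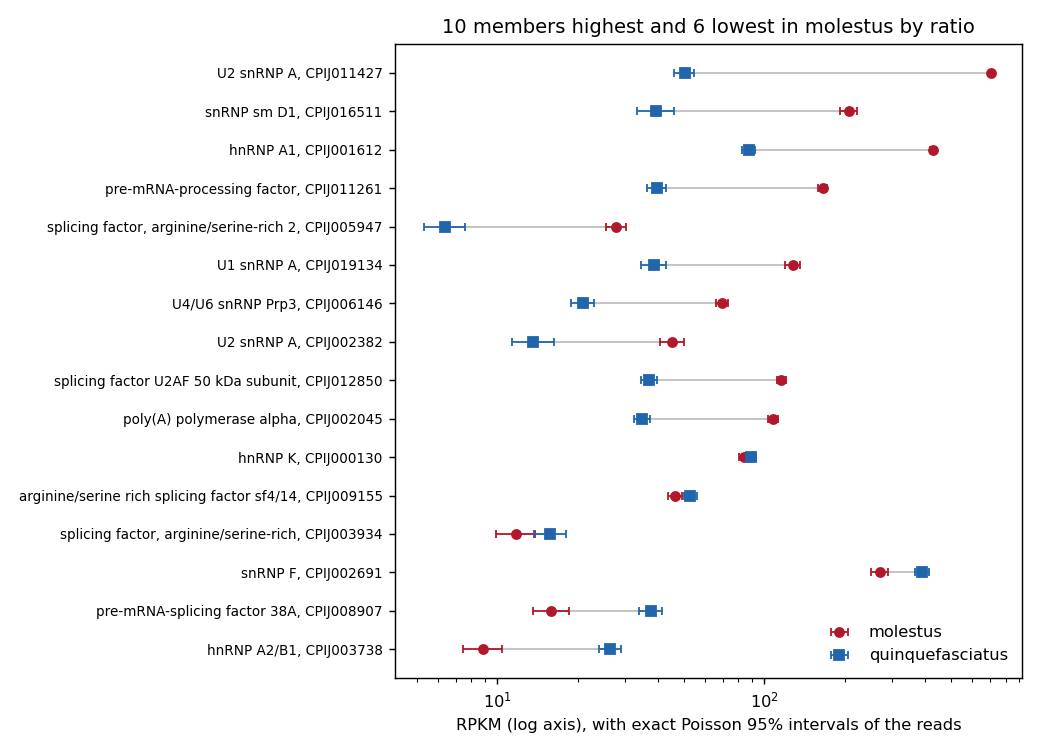
RPKM (x, log axis) in the molestus library (red circles) and the quinquefasciatus library (blue squares) of the 10 members with the largest ratios and the 6 members with ratios below 1 at a minimum of 10 RPKM and 50 reads; bars are exact Poisson 95% intervals of the reads. CPIJ011427, with 707 RPKM in molestus and 50.2 RPKM in quinquefasciatus, has the widest gap.

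The U4/U6.U5 tri-snRNP joins the spliceosome before catalysis. All 6 models of its proteins were higher in molestus, 2 by at least 2-fold, with a median of 0.82. Prp3 (CPIJ006146), a U4/U6 protein, had 69.5 RPKM in molestus and 20.8 RPKM in quinquefasciatus, 3.34-fold higher (2.99 to 3.73). The U4/U6 proteins Prp31 (CPIJ002179) and Prp4 (CPIJ012025), by comparison, were 1.68-fold (1.5 to 1.88) and 1.39-fold (1.2 to 1.61) higher. Most abundant was the tri-snRNP-associated model CPIJ009185, with 296 RPKM in molestus and 140 RPKM in quinquefasciatus, 2.12-fold higher (1.98 to 2.27). CPIJ016636, a model of 7023 bases named pre-mRNA-processing-splicing factor and counted with the other spliceosome factors, had 71.6 RPKM in molestus and 32.1 RPKM in quinquefasciatus, 2.23-fold higher (2.13 to 2.35). It was covered over 96.0% of its length in molestus and 68.8% in quinquefasciatus.

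Of the 22 other spliceosome factors 17 were compared, with 6 at least 2-fold higher and 1 at least 2-fold lower in molestus and a median of 0.70. CPIJ011261, named pre-mRNA-processing factor with no number, had 165 RPKM in molestus and 39.5 RPKM in quinquefasciatus, 4.19-fold higher (3.83 to 4.58). A model of the same name (CPIJ015768) was 1.66-fold higher (1.46 to 1.89). Factors of the late spliceosome named after yeast Cwc proteins were all higher in molestus. CPIJ006610 and CPIJ013782, both named CWC25, which acts at the first catalytic step in yeast, were 2.72-fold (2.35 to 3.15) and 2.13-fold (1.94 to 2.34) higher. CWC26 (CPIJ005011) was 2.39-fold higher (2.04 to 2.79), and CWC21 (CPIJ000280), with 36 reads in molestus and 14 reads in quinquefasciatus, was 2.67-fold higher (1.41 to 5.36). CWC22 (CPIJ001478), which brings in a core protein of the exon junction complex, was 1.86-fold higher (1.71 to 2.02).

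Near 1 were SLU7 (CPIJ010870), a factor of the second catalytic step, at 1.2-fold (1.09 to 1.31) and prp1 (CPIJ016885) at 1.08-fold (0.977 to 1.18), both below 1 after rescaling by the median ratio. The exception in the opposite direction was splicing factor 38A (CPIJ008907), which in yeast is needed to activate the assembled spliceosome. It had 168 reads and 15.9 RPKM in molestus, against 412 reads and 37.5 RPKM in quinquefasciatus, 2.36-fold lower (1.97 to 2.84). Its relative 38B (CPIJ004500) had 13.3 RPKM in molestus and 8.64 RPKM in quinquefasciatus, 1.54-fold higher (1.21 to 1.96), so the pair lay on opposite sides of 1 with intervals apart.

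SR proteins carry an RNA-binding domain and a tail rich in arginine and serine, and promote the use of nearby splice sites. Of 8 models 7 were compared, 3 at least 2-fold higher in molestus and 0 at least 2-fold lower. By any amount 5 were higher and 2 lower, with a median of 0.96 and an interval over members that includes 0 (-0.40 to 1.97). The most abundant, CPIJ007047, had 523 RPKM in molestus and 232 RPKM in quinquefasciatus, 2.25-fold higher (2.11 to 2.41). CPIJ013237 and CPIJ008786 were both 1.95-fold higher (1.83 to 2.08 and 1.75 to 2.17). The largest ratio was that of CPIJ005947, with 27.9 RPKM in molestus and 6.37 RPKM in quinquefasciatus, 4.38-fold higher (3.6 to 5.35). Its full description is splicing factor, arginine/serine-rich 2, RNAp C-term interacting protein, so it need not be SR factor 2 itself. Arginine/serine-rich model CPIJ001852 followed at 3.03-fold higher (2.35 to 3.93). On the other side stood CPIJ003934, with 142 reads in molestus and 198 reads in quinquefasciatus, and CPIJ009155, named sf4/14, at 46.1 RPKM in molestus and 52.9 RPKM in quinquefasciatus, 1.15-fold lower (1.06 to 1.24). The eighth SR model, CPIJ016646, had 3 reads in molestus and 0 in quinquefasciatus, which is at the detection floor of 3 reads.

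The hnRNPs, which coat new transcripts and can block splice sites, were higher in molestus for 9 of 11 models and lower for 2. Of the 11 models, 4 were at least 2-fold higher and 1 at least 2-fold lower. Their median was 0.70, with an interval over members that includes 0 (-0.08 to 1.49), as for the SR proteins. hnRNP A1 (CPIJ001612) had 5744 reads and 427 RPKM in molestus, against 1221 reads and 87.5 RPKM in quinquefasciatus, 4.89-fold higher (4.59 to 5.2). hnRNP A2/B1 (CPIJ003738), named after a close relative of A1 in mammals, had 141 reads and 8.84 RPKM in molestus, against 439 reads and 26.5 RPKM in quinquefasciatus, 3-fold lower (2.47 to 3.65). Among the 93 compared, it was the only member whose counting interval lay wholly beyond 2-fold lower, beside 12.8% of all models, while 22 members lay wholly beyond 2-fold higher, beside 16.7%. hnRNP K (CPIJ000130) had 84.1 RPKM in molestus and 89.1 RPKM in quinquefasciatus, a ratio whose interval includes 1 (1.06-fold lower, 0.991 to 1.13). The hnRNP 27C model (CPIJ015262), which in Drosophila takes part in localising oocyte transcripts, was 1.37-fold higher (1.26 to 1.48). hnRNP M (CPIJ011705) was 1.87-fold higher (1.76 to 2). The other models at least 2-fold higher were 3 hnRNPs with no letter in their names, CPIJ013858 at 2.94-fold (2.64 to 3.28), CPIJ015569 at 2.36-fold (1.98 to 2.83) and CPIJ006198 at 2.19-fold (1.66 to 2.9). The poly-U-binding splicing factor CPIJ014506, named after a regulator known from Drosophila ovaries, had 125 RPKM in molestus and 46.4 RPKM in quinquefasciatus, 2.69-fold higher (2.49 to 2.9). A pair of models named splicing factor, with nothing further, were 1.91-fold (CPIJ012520, 1.65 to 2.22) and 1.3-fold (CPIJ018107, 1.23 to 1.37) higher.

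The 7 models of 3′ end cleavage were all higher in molestus, 3 by at least 2-fold on the scale of RPKM + 1, with a median of 0.98 (0.45 to 1.54). The cleavage and polyadenylation specificity factor (CPSF) recognises the AAUAAA signal and includes the cutting enzyme. Its subunit models CPIJ009192 and CPIJ015409 were at nearly the same level, 75 and 74.9 RPKM in molestus and 28.0 and 29.0 RPKM in quinquefasciatus, 2.68-fold (2.31 to 3.1) and 2.58-fold (2.35 to 2.83) higher. A further CPSF model, CPIJ009643, was 1.38-fold higher (1.24 to 1.54). The cleavage stimulation factor binds downstream of the cut. Its 50 kDa subunit (CPIJ018254) was 3.05-fold higher (2.49 to 3.76), at 37.9 RPKM in molestus and 12.4 RPKM in quinquefasciatus. Its 64 kDa subunit (CPIJ012662), which holds the RNA, was 1.52-fold higher (1.35 to 1.71), so subunits of 1 complex differed by more than their counting intervals. The kinase Clp1 (CPIJ000183) was 1.45-fold higher (1.19 to 1.76), and the 25 kD subunit of cleavage factor Im (CPIJ014870), from 42 molestus and 21 quinquefasciatus reads, 2.08-fold higher by RPKM (1.2 to 3.69) with a log2 ratio of 0.98 on the scale of RPKM + 1, just under the threshold.

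In all, 66 members shared 1 of 18 product names, and 44 of the 66 were compared. Under the U5 116 kD, prp17 and poly(A) polymerase names, most models were near the detection limit. The 116 kD component of the U5 snRNP, a GTPase related to translation elongation factor 2 that is needed for spliceosome activation, was the name of 18 models. Of these, CPIJ011526 had 1310 reads and 45.6 RPKM in molestus, against 960 reads and 32.2 RPKM in quinquefasciatus, 1.42-fold higher (1.3 to 1.54), with 99.7% of its length covered in both libraries. CPIJ013674 had 8.61 RPKM in molestus and 5.35 RPKM in quinquefasciatus, 1.61-fold higher (1.26 to 2.06), over 37.7% of its length in molestus and 31.4% in quinquefasciatus. The other 16 had at most 1.08 RPKM in molestus and 1.16 RPKM in quinquefasciatus, and 5 of them had 0 reads in molestus. CPIJ016776 had 0 reads in molestus and 10 in quinquefasciatus, 3.21-fold lower if molestus is set to the floor of 3 reads. That value leaves out the counting error of the 10 reads, and the model was below 1 RPKM in both libraries and not compared.

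The name prp17, a factor of the second catalytic step, was carried by 6 models, none of which exceeded 0.437 RPKM in molestus or 1.47 RPKM in quinquefasciatus. Among the 9 poly(A) polymerases, 1 model held nearly all of the reads. CPIJ002045 (poly(A) polymerase alpha) had 2385 reads and 108 RPKM in molestus, against 802 reads and 34.9 RPKM in quinquefasciatus, 3.09-fold higher (2.85 to 3.35). The remaining 8 reached at most 2.69 RPKM in molestus and 2.35 RPKM in quinquefasciatus. Within these 8, CPIJ014836 was higher in molestus (26 reads, against 3 reads in quinquefasciatus, a ratio of 9 with an interval of 2.76 to 46.5) and CPIJ012940 lower (9 reads, against 27 reads in quinquefasciatus, 2.89-fold lower, 1.32 to 6.98). Reads that match several near-identical copies are not counted in tables of uniquely assigned reads, so the values of models under shared names are uncertain.

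**Figure D4:**
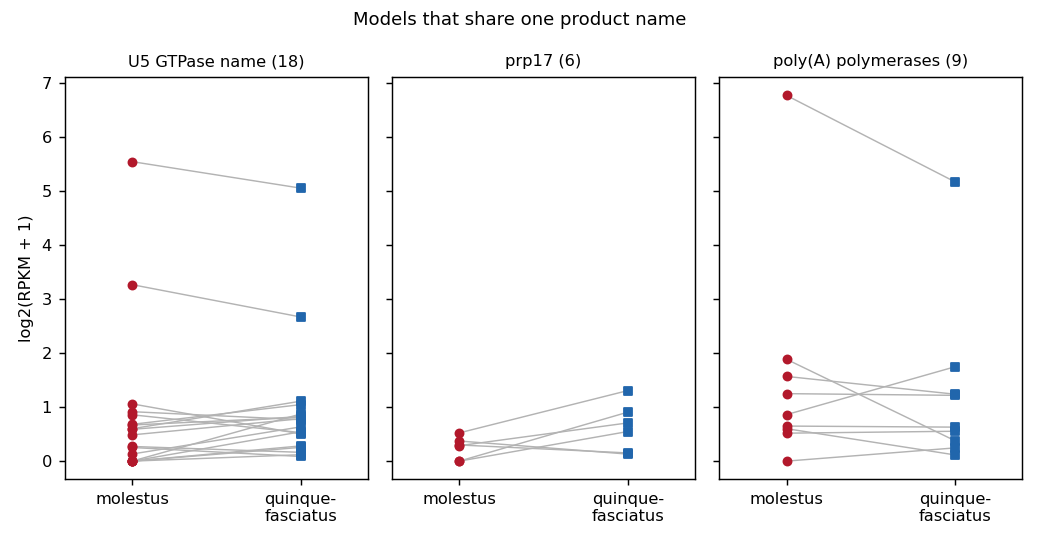
Levels, as log2(RPKM + 1) (y), of the models under the U5 116 kD GTPase name (18), prp17 (6) and poly(A) polymerase (9) in the molestus library (red circles) and the quinquefasciatus library (blue squares), with a line per model. In each library 1 polymerase and 2 U5 models stand clear of the rest, and no prp17 model does.

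The text rule also took in 5 models whose names give no role in pre-mRNA splicing, of which 2 were at least 2-fold higher and 1 at least 2-fold lower in molestus. Sen2 (CPIJ002417), a subunit of the endonuclease that splices tRNAs, was 2.51-fold higher (1.6 to 4.01). A pair of models is named after yeast sen1, a helicase known for its part in ending transcription, and these were 2.11-fold (CPIJ009255, 1.86 to 2.39) and 1.47-fold (CPIJ012300, 1.35 to 1.6) higher. The phosphatase corkscrew, listed as a splice variant (CPIJ014900), was 1.35-fold higher (1.16 to 1.57). The RNA-binding protein with multiple splicing (CPIJ012174) had 6 reads and 1.16 RPKM in molestus, against 20 reads and 3.73 RPKM in quinquefasciatus, 3.21-fold lower (1.24 to 9.77). With hnRNP A2/B1 and splicing factor 38A it makes up the 3 compared members at least 2-fold lower on the scale of RPKM + 1. By RPKM ratio alone, 3 more compared members of few reads were past 2-fold lower, namely CPIJ012940, CPIJ019200 (2 reads in molestus and 7 in quinquefasciatus) and CPIJ018470 (9 reads in molestus and 21 in quinquefasciatus).

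The part of a model covered by reads was compared for the 80 members with at least 50 reads in both libraries. Its median was 97.4% in molestus and 96.7% in quinquefasciatus, and 58 members were covered over at least 90% in both. In 9 members the covered parts differed by at least 10 percentage points. It was longer in molestus for 7 members (8.75%), close to the 7.71% of all 7950 models with as many reads, and shorter for 2 (2.5%), beside 8.63% of all models. The SR model CPIJ003934 was covered over 45.6% of its length by 142 molestus reads and over 99.4% by 198 quinquefasciatus reads, so its ratio (1.34-fold lower, 1.08 to 1.68) rests on unequal parts of the model. CWC22 also had a shorter covered part in molestus, at 89.2% against 99.3% in quinquefasciatus. Among the 7 with a longer covered part in molestus were CPIJ016636 (96.0% in molestus and 68.8% in quinquefasciatus), CPIJ005947 (96.2% in molestus and 72.5% in quinquefasciatus) and the U2 A model CPIJ002382 (90.1% in molestus and 70.4% in quinquefasciatus). The covered part was 92.9% in molestus and 77.9% in quinquefasciatus for U2AF 50 kDa. The higher folds of CPIJ016636, CPIJ005947, CPIJ002382 and U2AF 50 kDa likewise rest on unequal parts of the model. Restricted to the 58 members covered over at least 90% in both libraries, the median log2 ratio was 0.90, beside 0.46 for all 4635 such models, with 21 members at least 2-fold higher (26.0% of these models) and 1 at least 2-fold lower (9.1%).

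**Figure D5:**
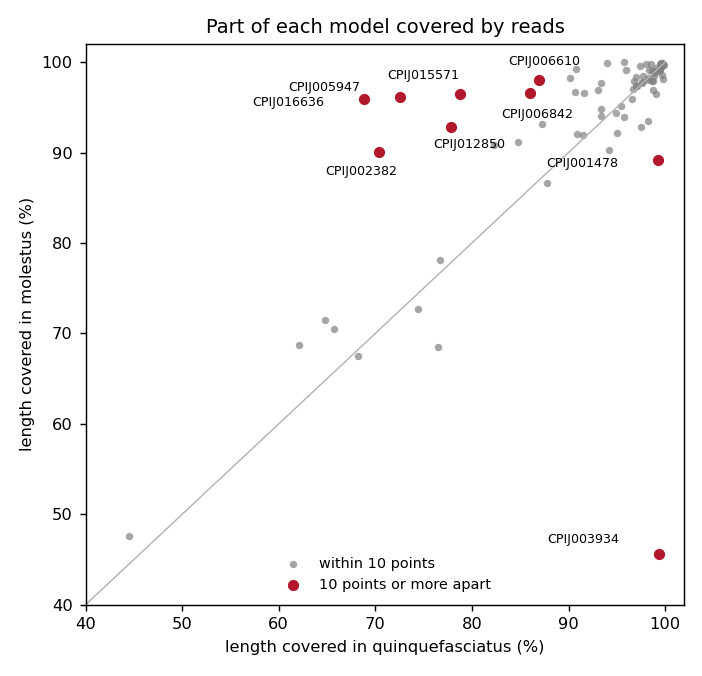
Percent of each model's length covered by reads in the molestus library (y) and the quinquefasciatus library (x), for the 80 members with at least 50 reads in both; red points differ by at least 10 points. CPIJ003934, at 45.6% in molestus and 99.4% in quinquefasciatus, lies farthest from the line of equal cover.

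Genes that work beside the members were taken by 7 text patterns on the descriptions. Of their 39 models, 38 were compared, with a median of 0.94. In molestus 17 were at least 2-fold higher, beside 22.8% of all models, and 1 at least 2-fold lower, beside 18.0%. No model matched the pattern for splicing helicases. The exon junction complex, which splicing leaves on the transcript, was represented by mago nashi (CPIJ002949), at 390 RPKM in molestus and 66.6 RPKM in quinquefasciatus, 5.86-fold higher (5.25 to 6.56), and by its partner RNA-binding protein 8A (CPIJ007339), 1.86-fold higher (1.68 to 2.06). With the cap-binding proteins, 2 of 5 models of that pattern were at least 2-fold higher. Export factors carry transcripts out of the nucleus, and their pattern had 6 of 9 models at least 2-fold higher and a median of 1.29. The median model, CPIJ002630, counted among the 6, is named as an export adapter of U small nuclear RNA and not of spliced transcripts. The nuclear RNA export factors CPIJ001995 and CPIJ012645 were 4.09-fold (3.75 to 4.47) and 3.75-fold (3.39 to 4.16) higher.

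Regulators outside the members' text pattern gave 4 of 11 models at least 2-fold higher and 1 lower, where the pattern also took in SMURF1 and smubp-2, whose names place them outside splicing. A serine-arginine protein (CPIJ008634) had 502 RPKM in molestus and 117 RPKM in quinquefasciatus, 4.3-fold higher (4.05 to 4.57). A serine/arginine repetitive matrix protein (CPIJ011429) was 6.55-fold lower (5.42 to 7.98), at 6.15 RPKM in molestus and 40.3 RPKM in quinquefasciatus. Of 6 compared models that bind or remove the poly(A) tail, 3 were at least 2-fold higher and 0 lower. The polyadenylate-binding proteins, which coat the finished tail, split. CPIJ004581 had 976 RPKM in molestus and 199.6 RPKM in quinquefasciatus, 4.89-fold higher (4.65 to 5.14), while CPIJ007980 had 977 RPKM in molestus and 1157 RPKM in quinquefasciatus, 1.19-fold lower (1.17 to 1.21). The survival motor neuron models, which load Sm rings onto snRNAs, were 1.38-fold (CPIJ008880, 1.21 to 1.58) and 1.76-fold (CPIJ004934, 1.5 to 2.06) higher, and 0 of 3 snRNP assembly models were past 2-fold. Among the LSm models, relatives of the Sm proteins that are named lsm1 or LSM12, 2 of 4 were at least 2-fold higher. Neither name states a role in splicing. CPIJ006451, counted as higher, had 22 reads in molestus and 9 reads in quinquefasciatus.

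Set beside other nuclear machinery, RNA polymerases and general transcription factors had a median of 0.96 over 73 compared models, with 33 at least 2-fold higher and 2 lower. Ribosome biogenesis had a median of 0.50 over 44 models, with 10 higher (22.7%, near the 22.8% of all models) and 1 lower. Cytosolic ribosomal proteins had -0.80 over 109 models, with 7 higher and 29 lower. These differences between lists were not tested. Markers of DNA replication and of the germline also differed between the libraries. Of 33 compared DNA replication models, 24 were at least 2-fold higher in molestus (22.8% of all models) and 0 lower (18.0%). The pattern also took in CPIJ011426 and CPIJ018451, named MCM3-associated protein, which count among the 24. The summed level over all 46 models was 3580 RPKM in molestus and 424 RPKM in quinquefasciatus. Of 18 germline and ovary models, 11 were at least 2-fold higher and 4 lower, with a sum of 1435 RPKM in molestus and 486 RPKM in quinquefasciatus. None had 0 reads in either library. All 4 lower models were named piwi, while the piwi models CPIJ002459 and CPIJ017381 were at least 2-fold higher. CPIJ002459 alone held 488 RPKM of the molestus sum and 112 RPKM of the quinquefasciatus sum. The part of replicating or germline cells in the level of the splicing and 3′ end models was not tested.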

How the data were processed

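RNA of 30 females of a laboratory strain per taxon was pooled and made into 1 non-directional library of polyadenylated RNA, per the labels' protocols. For each transcript model the authors deposited a count of uniquely assigned reads, an RPKM value, the model length and the percent of the length covered, per the file headers. Not given in the sources used here are aligner, counter and gene model release. The counts summed to the library total in the header, and unlisted models were given 0 reads, while RPKM recomputed from the deposited count and length agreed within rounding. The libraries keep no strand, so overlapping antisense genes are not separated.

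The tables were joined on the model identifier, and the 116 members were taken by text pattern. Each was given 1 of 12 roles by hand from its description. The members, lists and roles were chosen with earlier results of these data known, and the 2 marker lists and 2 alternatives were added after seeing the data. Comparisons used models reaching 1 RPKM in either library, on the scale of log2 of RPKM plus a pseudocount of 1, with 2-fold as the threshold. Medians have exact order-statistic intervals over members. Folds have conditional binomial (Clopper-Pearson) 95% intervals, and shares of reads Clopper-Pearson intervals. In a fold against 0 a floor of 3 reads stands in for the 0, and the counting error of the other library is left out. At 1 kb the floor is 0.307 RPKM in molestus and 0.295 RPKM in quinquefasciatus. A count test needs replicates and was not run. Models were named by role, taking the 4 most abundant and the 2 furthest up and 2 furthest down at 10 RPKM and 50 reads, plus the 10 furthest either way among all members, and any other member could be named. No sequence is given, since no table used here links these identifiers to one. The procedure was tested on simulated counts. Trimmed mean of M-values (TMM) factors were taken with edgeR 4.0.16 (R 4.3.3). Other steps used scipy 1.17.1, pandas 2.3.3, numpy 2.4.6 and, for the figures, matplotlib 3.10.9, under Python 3.11.15.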

Additional observations from a re-analysis of the deposited data

How the results depend on the processing

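The members' median log2 ratio stayed above 0 under all alternatives tried, between 0.46 and 0.90. It was 0.58 at a pseudocount of 10, 0.59 without a filter, 0.46 after rescaling by the median ratio, 0.52 with TMM factors, 0.49 when both libraries were set to 1 sum without their most abundant models, and 0.54 at the same total of reads without cytosolic ribosomal proteins. The count of members at least 2-fold higher in molestus was 33 of 93, with the share of all models, 22.8%, given in brackets for each alternative below. It was 20 at a pseudocount of 10 (10.4%), 20 under the median ratio (16.4%) and 20 at 1 sum without those abundant models (17.4%). Among models covered over at least 90% it was 21 of 58 (26.0%), and at a 4-fold threshold 4 (4.81%). The count at least 2-fold lower was 3 of 93 (18.0%). It was 6 at a pseudocount of 0.1 (23.1%), 0 at a pseudocount of 10 (4.83%) and 0 at 4-fold (3.97%). Among models covered over at least 90% it was 1 of 58 (9.1%), and for intervals wholly beyond 2-fold 1 (12.8%). The members' share was 1.06% of molestus and 0.475% of quinquefasciatus summed RPKM, and 1.48% and 0.992% of reads without the most abundant models. The ratio of CPIJ007014 reversed to -0.20 under the median ratio, -0.11 with TMM, -0.15 without the most abundant models and -0.10 without cytosolic ribosomal proteins. Apart from what each rescaling and threshold does by construction, the cause was not tested. No paired analysis was possible because each taxon has 1 library, and no library could be left out for the same reason.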
